A study of Mus musculus with 2 samples.

Results

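The STAT genes encode transcription factors that carry cytokine signals from the cell surface to the nucleus (signal transducers and activators of transcription). The members described here, Stat2, Stat3, Stat4, Stat5a, Stat5b and Stat6, were taken by gene symbol, and all 6 were found among the 20938 genes of the deposited tables. Their levels were compared in 2 mRNA libraries from splenic Treg cells, the CD4+CD25+ regulatory T cells that restrain immune responses, collected on day 7 after transplantation of islets. The recipients, of C57BL/6J background, had been made diabetic with streptozotocin, and they received BALB/c islets and, for these libraries, no tolerance-inducing antibodies. The question of the study was what the loss of Mettl14, a subunit of the enzyme that writes N6-methyladenosine on RNA, does in Treg cells.

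The library named Ctrl came from littermate controls, with the genotype given as wild type. The library named KD came, per the protocol, from heterozygous Foxp3-Mettl14 f/+ cKO mice, in which Foxp3-Cre removes 1 of the alleles of Mettl14 in cells that express Foxp3, whereas its own genotype label reads Foxp3 knockdown. The age and sex of the mice and the number of mice behind each library were not given in the sources used here. There was 1 library per group, so no difference below has a replicate check, and differences are between these libraries and not between genotypes. Each deposited value was a whole number of reads multiplied by 1 scaling factor per library, 0.967 in the Ctrl library and 1.14 in the KD library, which gave 20239325 and 18327535 reads in all. Levels are given on that deposited scale, and fold changes are log2 of KD over Ctrl after adding 1 to each level. Brackets give exact (Clopper-Pearson) 95% intervals, which cover counting error only.

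A cytokine receptor brings together JAK kinases, which phosphorylate tyrosines on the receptor and on the STAT proteins docked there. Phosphorylated STAT proteins pair, enter the nucleus and bind DNA, mostly at palindromes of the form TTCNNNGAA, and among the genes they switch on are those of SOCS proteins, which in turn shut the receptor down. In Treg cells STAT5 acts downstream of interleukin-2 and sustains Foxp3, STAT3 answers cytokines such as interleukin-6 and interleukin-10, STAT4 answers interleukin-12, STAT6 answers interleukin-4, and STAT2 works with Irf9 in the response to type I interferons.

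The genes that check the labels came first. Mettl14 had 948 reads in the Ctrl library and 652 in the KD library, levels of 917 and 741 and a log2 fold change of -0.31 [-0.45 to -0.16]. Foxp3, the lineage factor of Treg cells, had 1547 and 1361 reads, levels of 1497 and 1548 and a log2 fold change of 0.048 [-0.058 to 0.15]. The Foxp3 level thus did not bear out the label Foxp3 knockdown, and for that reason the groups are called the library labelled Ctrl and the library labelled KD. The Treg cells had been isolated with a kit that first depletes cells other than CD4+ T cells and then selects CD25+ cells. Markers of other cells were nonetheless present and differed between the libraries. All 13 of the 13 measured B cell markers were at least 1.5-fold higher in the library labelled KD, with a summed level of 9631 in Ctrl and 49494 in KD, and none of them was at 0. The same held for 15 of 15 macrophage and monocyte markers, with sums of 29568 and 62316, of which only Marco was listed at 0, in the Ctrl library. Of 13 granulocyte markers 3 were higher and 3 lower, with sums of 260467 and 357846, the largest of the sums given here. Of 15 core T cell genes 0 were higher and 2 lower, with sums of 71785 and 58234. Of 11 markers of CD8 T and NK cells 8 were higher and 0 lower, with sums of 6081 and 12095, and of 12 cell cycle genes 0 were higher and 9 lower, with sums of 77688 and 50706. With the T cell core genes equal, 9 of the CD8 T and NK cell markers were higher and 0 of the cell cycle genes were lower. When the libraries were scaled to the same sum of core T cell genes, the median of all log2 fold changes went from -0.042 to 0.26, and every log2 fold change below is to be read against that median. With it the Mettl14 log2 fold change was -0.0049. In RNA from a mixed sample, fewer cells of a type and less RNA per cell cannot be told apart.

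Among the 6 STAT genes, Stat3 was higher in the library labelled KD by more than 1.5-fold, and the other 5 differed by less in either direction. All genes compared, 16659 with a mean level of at least 1, give the background, in which 17.2% of genes were past that threshold with the higher level in KD and 24.2% with the lower, 41.4% in all. The STAT genes are well expressed, and among the 3105 genes with a mean level at or above that of the lowest member these shares were 9.76%, 4.19% and 13.9%. The count of members, 1 of 6 higher and 0 of 6 lower, is given against those shares and not as a result about the family. The 6 genes had a median log2 fold change of 0.18, beside -0.042 for all genes and 0.079 for the 3105 genes of like level. With the T cell core genes equal, 2 members, Stat3 and Stat2, were past 1.5-fold, against 28.2% of all genes higher and 19.3% lower, and 25.9% and 0.966% of the genes of like level, and the share of changed genes that were higher went from 41.6% to 59.3%.

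Stat3, which relays interleukin-6, interleukin-10 and related cytokines, had 3939 reads in the Ctrl library and 6151 in the KD library. Its level was 3811 in Ctrl and 6995 in KD, and it stood at percentiles 93.0 and 97.0 of the genes compared. The log2 fold change was 0.88 [0.82 to 0.93], 1.84-fold on a linear scale, and it ranged from 0.79 with library totals to 1.18 with the T cell core genes equal. Under every scaling tried Stat3 was past 1.5-fold and had the highest fold change of the family. Marker sums of B cells, macrophages and monocytes, granulocytes and CD8 T and NK cells were higher in that library too, as given above. The sums of core T cell, cell cycle and erythroid genes were lower, and of 13 granulocyte markers 3 were higher and 3 lower. B cells, macrophages, granulocytes, CD8 T and NK cells are cells that the isolation should remove. Their part in the Stat3 difference was not tested.

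Stat2, the partner of Irf9 in the interferon-stimulated complex ISGF3, had 1601 and 1855 reads. Its level was 1549 in Ctrl and 2109 in KD, a log2 fold change of 0.45 [0.35 to 0.54], and 0.75 with the T cell core genes equal. Stat2 was therefore past 1.5-fold with that scaling alone.

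Stat6, which relays interleukin-4 and interleukin-13, had 4429 and 4396 reads, levels of 4285 in Ctrl and 4999 in KD and a log2 fold change of 0.22 [0.16 to 0.28]. Stat5b, which with Stat5a relays interleukin-2 and interleukin-7, had 4306 and 4008 reads, levels of 4166 and 4558 and a log2 fold change of 0.13 [0.067 to 0.19]. Stat4, which relays interleukin-12, had 2074 and 1912 reads, levels of 2006 and 2174 and a log2 fold change of 0.12 [0.026 to 0.21]. Each of these 3 genes had fewer reads in the library labelled KD and a higher level on the deposited scale. With library totals their log2 fold changes were 0.13, 0.040 and 0.026, and with the T cell core genes equal 0.52, 0.43 and 0.42. For Stat5b and Stat4 the difference thus all but vanished with library totals.

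Stat5a was the only member with a lower level in the library labelled KD, 1692 against 1761 in Ctrl, from 1488 and 1820 reads. The log2 fold change was -0.057 [-0.16 to 0.042], an interval that includes 0, and it was -0.15 with library totals and 0.24 with the T cell core genes equal. No direction can thus be given for Stat5a.

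**Figure D1:**
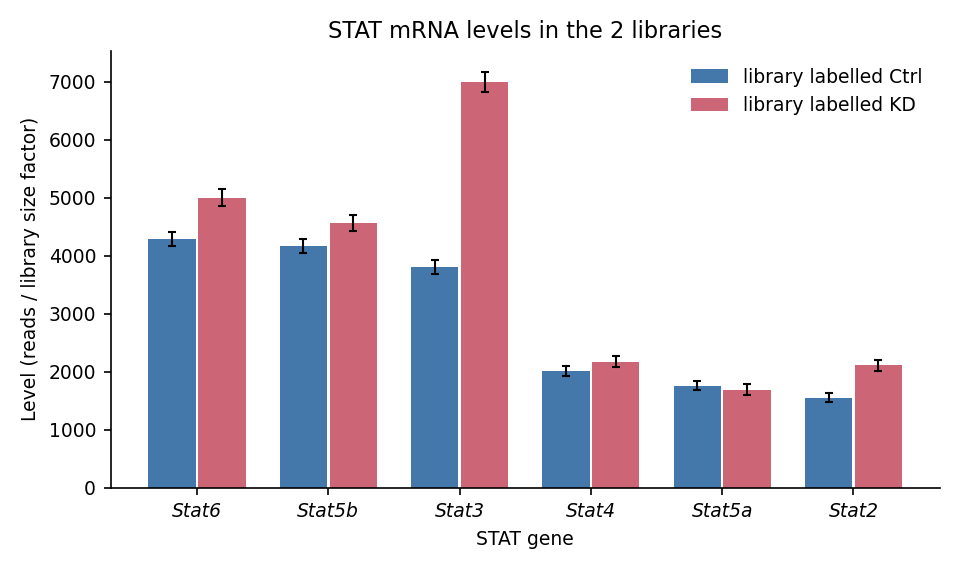
Level of each of the 6 STAT genes (bars, deposited scale) in the library labelled Ctrl and the library labelled KD, 1 library per group, with error bars for exact 95% counting intervals. Stat3 shows the widest step, from 3811 to 6995, and Stat5a is the only gene whose KD bar is below its Ctrl bar.

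**Figure D2:**
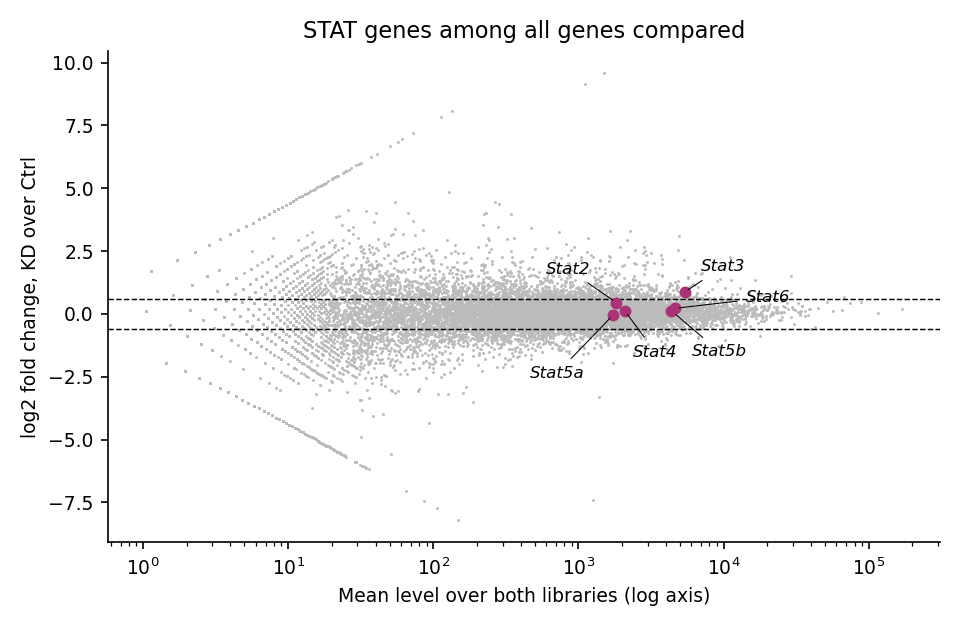
Log2 fold change of KD over Ctrl against the mean level of both libraries (log axis) for the 16659 genes compared (grey), with the 6 STAT genes marked and dashed lines at 1.5-fold. Stat3 lies above the upper line, and the other 5 members lie between the lines.

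Because whole reads were recovered, the libraries could also be compared by reads. A two-sided exact binomial test against normalised library sizes, with Benjamini-Hochberg adjustment over 14863 genes, called 14.2% of genes higher and 18.1% lower at an adjusted p under 0.1 and at least 1.5-fold. Stat3 was the only member called. The test compares these libraries and allows for no spread between mice. Its calls of genes with few reads are also affected by zeros that counting error does not cover, as given below. When a spread was assumed in edgeR's exact test, as a biological coefficient of variation of 0.2, 2419 genes and 0 members were called, and with 0.4 the count was 798 genes and 0 members. Whether Stat3 differs beyond the spread between mice thus cannot be told from these libraries.

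Ratios of members within a library do not depend on the scaling factor. Stat3 reads were 2.16 times those of Stat5a in the Ctrl library and 4.13 times in the KD library, so the ratio was 1.91-fold higher [1.76 to 2.07]. The Stat3 to Stat4 ratio was 1.90 and 3.22, 1.69-fold higher [1.57 to 1.83]. The Stat3 to Stat5b ratio was 0.915 and 1.53, 1.68-fold higher [1.58 to 1.78]. In each case the balance was shifted toward Stat3 in the library labelled KD. The ratio of Stat3 to Stat6 was 0.889 and 1.40, 1.57-fold higher [1.48 to 1.67]. Stat3 to Stat2 moved least, from 2.46 to 3.32, 1.35-fold [1.25 to 1.46]. All 5 pairs with Stat3 had intervals that left out 1.

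Among pairs without Stat3, Stat2 to Stat5a went from 0.880 in Ctrl to 1.25 in KD, 1.42-fold higher [1.29 to 1.56]. Stat5a to Stat5b, the neighbouring genes that share the interleukin-2 signal, went from 0.423 to 0.371, a ratio fold of 0.878 [0.809 to 0.953]. Stat4 kept its ratio to Stat5b within counting error, 0.482 and 0.477, with a ratio fold of 0.990 [0.918 to 1.07]. Of the 15 pairs, 13 had intervals that left out 1 and 2 had intervals that included it.

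As a share of the reads of the 6 genes, Stat3 took 21.7% [21.1 to 22.3] in the Ctrl library and 31.0% [30.4 to 31.7] in the KD library. Stat2 took 8.81% [8.40 to 9.23] and 9.36% [8.96 to 9.78], intervals that overlap. The shares of the other 4 were lower in KD, Stat6 with 24.4% and 22.2%, Stat5b with 23.7% and 20.2%, Stat4 with 11.4% and 9.65% and Stat5a with 7.51% in KD, under its Ctrl interval of 9.58% to 10.5%. The family as a whole took 0.0898% of the reads of the Ctrl library and 0.108% of those of the KD library, and its summed level had a log2 ratio of 0.36 [0.33 to 0.39].

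**Figure D3:**
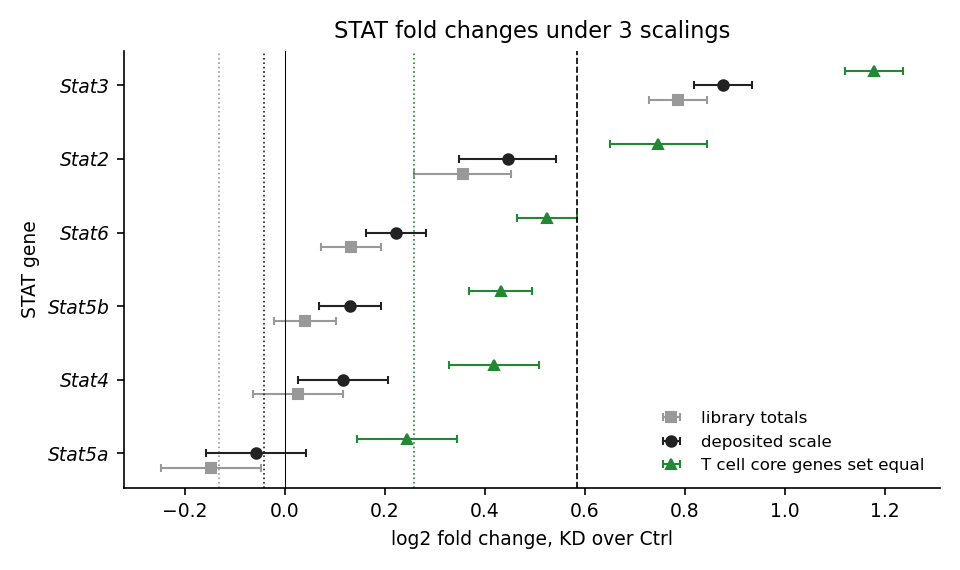
Log2 fold change of KD over Ctrl for each STAT gene with library totals, the deposited scale and equal T cell core genes, with bars for exact 95% counting intervals, dotted lines at the median of all genes under each scaling and a dashed line at 1.5-fold. Stat3 lies highest under each of the 3 scalings, from 0.79 to 1.18, and Stat5a lies lowest, from -0.15 to 0.24.

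Levels of different genes can be compared per length only. Per kilobase of the principal GENCODE transcript, Stat6 had the highest level of the family in the Ctrl library, at 1135, followed by Stat3 at 844, Stat5b at 799, Stat4 at 673, Stat5a at 453 and Stat2 at 352. In the KD library Stat3 came first at 1549, ahead of Stat6 at 1324, Stat5b at 874, Stat4 at 729, Stat2 at 480 and Stat5a at 435. The order depended on the length used. Per kilobase of all merged exons, Stat6 had 1136 in KD, Stat5b 823 and Stat3 734, and in Ctrl Stat6 had 973, Stat5b 752, Stat4 518, Stat3 400, Stat2 261 and Stat5a 247. By either length Stat2 and Stat5a had the lowest levels of the 6, with Stat5a last in the KD library.

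The genes lie in few places in the genome (GRCm38, which is mm10). Stat5b (chr11:100780731-100850724, minus strand), Stat5a (chr11:100859351-100885169, plus strand) and Stat3 (chr11:100885098-100939540, minus strand) share 159 kb of chromosome 11. Within it Stat5b and Stat5a are 8626 bases apart, and Stat5a and Stat3 overlap at their 3' ends by 72 bases. Those bases are 0.756% of the merged exons of Stat3 and 1.01% of those of Stat5a, and whether the counting used strand was not stated. In the order of the chromosome these adjacent genes had log2 fold changes of 0.13, -0.057 and 0.88, so only the last was past 1.5-fold under every scaling tried. The next genes outward were Ghdc, with 107 and 191 reads and a log2 fold change of 1.06, and Cavin1, with 98 and 31 reads and a log2 fold change of -1.40.

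Stat6 (chr10:127642986-127660957, plus strand) and Stat2 (chr10:128270559-128292849, plus strand) lie on chromosome 10, and Stat4 (chr1:51987148-52107189, plus strand) on chromosome 1. Beside Stat6, Lrp1, a scavenger receptor of macrophages and other cells, had 3188 and 7310 reads and a log2 fold change of 1.43. Beside Stat2, Il23a, which encodes a subunit of interleukin-23, was listed at 0 in Ctrl with 14 reads in KD. Part of the reads of some members could belong to another gene. Of the 50-base windows of the principal transcripts, 16.4% of those of Stat5a and 11.8% of those of Stat5b also occur in a transcript of another gene, and 28.6% of those of Stat4 occur in the overlapping transcript Gm28177, which has no row of its own. For Stat2, Stat3 and Stat6 the count was 0, so the split between Stat5a and Stat5b is less certain than the values of these 3.

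The sequences upstream of the start are shown for the members with the highest fold changes, Stat3 and Stat2, and for Socs3, the feedback inhibitor best known as a STAT3 target. Each run is the 250 bases before the start, 5′ to 3′ on the strand of the gene, from RefSeq (GRCm38.p6). Capitals mark the motifs searched, which were the STAT palindrome TTCNNNGAA, the wider form TTCNNNNGAA, the interferon-response element GAAANNGAAA and the GC box GGGCGG, each on both strands.
Stat3, chr11:100939541-100939790, minus strand: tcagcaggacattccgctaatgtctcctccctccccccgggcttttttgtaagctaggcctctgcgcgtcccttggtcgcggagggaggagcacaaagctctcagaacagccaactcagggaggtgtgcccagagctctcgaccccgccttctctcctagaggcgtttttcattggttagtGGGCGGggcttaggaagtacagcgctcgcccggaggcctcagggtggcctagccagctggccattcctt
Stat2, chr10:128270248-128270497, plus strand: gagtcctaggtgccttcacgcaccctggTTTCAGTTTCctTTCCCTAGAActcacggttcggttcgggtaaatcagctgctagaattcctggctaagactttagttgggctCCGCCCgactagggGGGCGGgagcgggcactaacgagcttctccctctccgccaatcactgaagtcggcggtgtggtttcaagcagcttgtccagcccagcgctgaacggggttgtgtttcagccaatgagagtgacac
Socs3, chr11:117969367-117969616, minus strand: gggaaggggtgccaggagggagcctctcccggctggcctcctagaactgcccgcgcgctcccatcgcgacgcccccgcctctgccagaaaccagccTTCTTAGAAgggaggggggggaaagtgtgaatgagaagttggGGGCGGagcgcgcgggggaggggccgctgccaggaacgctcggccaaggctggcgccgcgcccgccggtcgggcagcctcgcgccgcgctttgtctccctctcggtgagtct

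In windows that ran 50 bases further, over 300 bases, TTCNNNGAA was in 8.30% of the 32851 RefSeq promoters, TTCNNNNGAA in 6.95%, GAAANNGAAA in 3.44% and GGGCGG in 35.7%. All 6 STAT genes were matched, with 9 windows. None of these held TTCNNNGAA. Stat2 held the interferon-response element from -222 to -213, on the other strand, and TTCNNNNGAA from -210 to -201. These positions count from the RefSeq start. The last bases of the Stat2 window, past that start, were in no GENCODE transcript of Stat2, which begins further on, at chr10:128270559. The last bases of the first Stat5b window were likewise in no GENCODE transcript of Stat5b. Of the remaining members, Stat4 held GAAANNGAAA from -97 to -88 of its second window, and the Stat3 window held GGGCGG alone. Of the 4 SOCS genes with a window, Socs3 held TTCNNNGAA from -154 to -146, and Cish held it at 1 to 9 and at 12 to 20, past the start. A match is a match of letters and says nothing of binding in these cells.

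The receptors that feed the members are grouped by the STAT each mainly uses. Counts of genes in these and later lists stand beside 17.2% of all genes higher and 24.2% lower. With the T cell core genes equal these shares were 28.2% and 19.3%. The counts are given against those shares and not as results about the lists. Of 16 receptor genes that feed STAT5, 4 were at least 1.5-fold higher in the library labelled KD and 3 lower, with a median log2 fold change of 0.33. Il2ra, the CD25 chain by which the cells were selected, is the interleukin-2 receptor subunit typical of Treg cells. It was among the higher, with 802 and 1092 reads, levels of 776 and 1242 and a log2 fold change of 0.68 [0.55 to 0.81]. Treg markers as a list did not share this. Of 14 such markers, Il2ra among them, 2 were higher and 2 lower, with a median of -0.018. With the T cell core genes equal 6 of the 14 were higher and 0 lower. The common gamma chain Il2rg, shared by the interleukin-2 and interleukin-7 receptors, had 5086 and 4159 reads and a log2 fold change of -0.057, beside 0.24 with the T cell core genes equal. Il2rb, the interleukin-2 receptor beta chain, had levels of 3406 and 4842, a log2 fold change of 0.51. Csf2ra and Il5ra, the binding chains for GM-CSF and interleukin-5, had levels of 1398 and 2736 and of 84.2 and 279, with log2 fold changes of 0.97 and 1.72. Il9r had 177 and 448, a log2 fold change of 1.33. Epor, the erythropoietin receptor of red cell precursors, was lower with 538 and 215, a log2 fold change of -1.32, and 10 of 14 erythroid markers were lower too, with sums of 54616 and 28087. Whether these cells made the difference was not tested.

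Of 12 measured receptor genes that feed STAT3, 4 were higher and 2 lower, beside 17.2% and 24.2% of all genes. The median of the 12 was 0.43. Il6st, the signalling chain gp130 common to the interleukin-6 family, had 5389 and 4382 reads and a log2 fold change of -0.065, and 0.24 with the T cell core genes equal. Il6ra, the binding chain for interleukin-6, had levels of 2074 and 3038 and a log2 fold change of 0.55, and Il10ra, the binding chain for interleukin-10, had 1783 and 3328 and a log2 fold change of 0.90. Il21r had 2556 and 3563, a log2 fold change of 0.48, and Il27ra had 2074 and 1490, a log2 fold change of -0.48. Receptors above Stat3 thus lay on both sides of the median of all genes, -0.042, and their own median of 0.43 lay above it. Osmr was listed at 0 in both libraries, Lepr had 25 reads and 0, and Il22ra1 had 0 and 15. Among the higher, Lifr had 314 and 1030 reads and a log2 fold change of 1.94. Among the lower, Il11ra1 had 147 and 78 reads and a log2 fold change of -0.67. Csf3r, the receptor for G-CSF and also a granulocyte marker, had 7057 and 12115 reads and a log2 fold change of 1.01. Of 13 granulocyte markers 3 were higher and 3 lower, with sums of 260467 and 357846.

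The receptors of STAT4, STAT6 and STAT2 were all under 1.5-fold. Il12rb1 and Il12rb2, the chains of the interleukin-12 receptor above Stat4, had 292 and 197 reads and 366 and 279 reads, with log2 fold changes of -0.33 and -0.16, and of -0.033 and 0.14 with the T cell core genes equal. Il4ra, the interleukin-4 receptor above Stat6, had levels of 4366 and 6544, a log2 fold change of 0.58, and Il13ra1 had 676 and 978, a log2 fold change of 0.53. Both passed 1.5-fold with the T cell core genes equal. Ifnar1 and Ifnar2, the interferon receptor chains above Stat2, had log2 fold changes of 0.16 and 0.046.

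The JAK kinases, which phosphorylate the STAT proteins, gave 0 of 4 higher and 0 of 4 lower, with a median of 0.14. Jak2 had levels of 4573 and 5697, a log2 fold change of 0.32 [0.26 to 0.37]. With the T cell core genes equal Jak2 was at 0.62 and was the 1 of the 4 past 1.5-fold. Jak3, which pairs with the common gamma chain, had 2598 and 2141, a log2 fold change of -0.28 [-0.36 to -0.19], and 0.023 with the T cell core genes equal. Of the 8 SOCS genes 2, Socs2 and Socs3, were higher and 0 lower, beside 17.2% and 24.2% of all genes. The median of the 8 was 0.33. With the T cell core genes equal 5 of the 8 were higher and 0 lower, beside 28.2% and 19.3% of all genes. Cish, a target and inhibitor of STAT5, had 383 and 406 reads and a log2 fold change of 0.32 [0.11 to 0.52], and Socs1 had 310 and 308 reads and 0.22 [-0.0083 to 0.46].

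Of 6 other STAT inhibitors 2 were higher and 1 lower, beside 17.2% and 24.2% of all genes. Pias3, which blocks DNA binding by STAT3, had levels of 368 and 597, a log2 fold change of 0.70 [0.51 to 0.89]. Pdlim2, a ubiquitin ligase that targets nuclear STAT4, had 688 and 1185, a log2 fold change of 0.78 [0.65 to 0.92]. Pias2 was lower, with 1258 and 822 and a log2 fold change of -0.61 [-0.75 to -0.48]. With the T cell core genes equal 3 of the 6 were higher and 0 lower, beside 28.2% and 19.3% of all genes. Of 6 tyrosine phosphatases, Ptpn1, which acts on JAK kinases, was higher, with 3791 and 6069 and a log2 fold change of 0.68, and Ptprt was lower, with 48 reads and 4. Of 10 partners and import factors, the coactivator Ncoa1 alone was past 1.5-fold, with 2096 and 3316 and a log2 fold change of 0.66, which was 0.57 and under the threshold with library totals. With the T cell core genes equal 4 of the 10 were past it, beside 28.2% of all genes higher. Irf9, the partner of STAT2, had 2369 and 2230, a log2 fold change of -0.087, and 0.21 with the T cell core genes equal.

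Target genes were taken from lists of textbook targets, and several are also markers of other cells. Of 12 STAT5 targets 4 were higher and 0 lower, beside 17.2% and 24.2% of all genes, with a median of 0.36. Among those targets Osm had 278 and 1100 reads and a log2 fold change of 2.21. Bcl2, which protects from cell death, had levels of 3122 and 4977, a log2 fold change of 0.67. With library totals the Bcl2 value was 0.58, just under the threshold, leaving 3 of the 12. Of the STAT5 targets with high levels, Ccnd2, a cell cycle cyclin, had 9174 and 7168, a log2 fold change of -0.36, and -0.054 with the T cell core genes equal, and the cell cycle genes were lower as given above. Of 13 STAT3 targets 4 were higher and 3 lower, with a median of 0.33. The early response genes Fos and Junb had levels of 854 and 3266 and of 2952 and 6603, with log2 fold changes of 1.93 and 1.16. Ahr, a ligand-activated receptor, had 460 and 690 and 0.59, and was under the threshold with library totals, at 0.50, which left 3 of the 13. Among those that were lower, the cytokine genes Il10 and Il21 had few reads, 46 and 22 for Il10 and 42 and 6 for Il21.

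Of 8 STAT4 targets 2 were higher and 0 lower, beside 17.2% and 24.2% of all genes, with a median of 0.26. The 2 were Il18rap, with levels of 1997 and 3556, and Map3k8, with 481 and 1138. The CD8 T and NK cell markers were higher too, and their part in this was not tested. Tbx21, the Th1 lineage factor, had 512 and 614, a log2 fold change of 0.26. Of 9 measured STAT6 targets 6 were higher and 1 lower, and the median was 0.80, beside 17.2% and 24.2% of all genes. Of the 6, 3 had few reads, Arg1 with 21 and 31 and an interval of its log2 fold change that includes 0, Ccl22 with 6 and 25 and Pparg with 26 and 47. Most of the 6 are genes of macrophages or B cells. Chil3 had the highest levels of the list, 13314 and 23257, and its log2 fold change of 0.80 was the median. Mrc1, a mannose receptor of macrophages, had levels of 205 and 1431, a log2 fold change of 2.80. Fcer2a, an IgE receptor and here also in the B cell list, had 256 and 1508, a log2 fold change of 2.55. Gata3, the STAT6 target of Th2 and Treg cells, had 1117 and 975, a log2 fold change of -0.20, and 0.10 with the T cell core genes equal. The B cell and macrophage markers were higher too, and their part in the values of this list was not tested.

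Of 16 STAT2 targets, the genes that interferon switches on through ISGF3, 5 were higher and 0 lower, with a median of 0.40, beside 17.2% and 24.2% of all genes. Oas2 had levels of 941 and 1900, a log2 fold change of 1.01, and Rsad2 had 425 and 827, a log2 fold change of 0.96. The others past 1.5-fold were Ifit3, Mx1 and Oasl2, with log2 fold changes of 0.78, 0.75 and 0.66, and with library totals 4 of the 16 were past it. Isg15 had 251 and 182 reads and a log2 fold change of -0.23 [-0.51 to 0.051], and Ifit2 had -0.011, values that were 0.071 and 0.29 with the T cell core genes equal. With the T cell core genes equal 10 of the 16 were past the threshold, as were 28.2% of all genes.

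**Figure D4:**
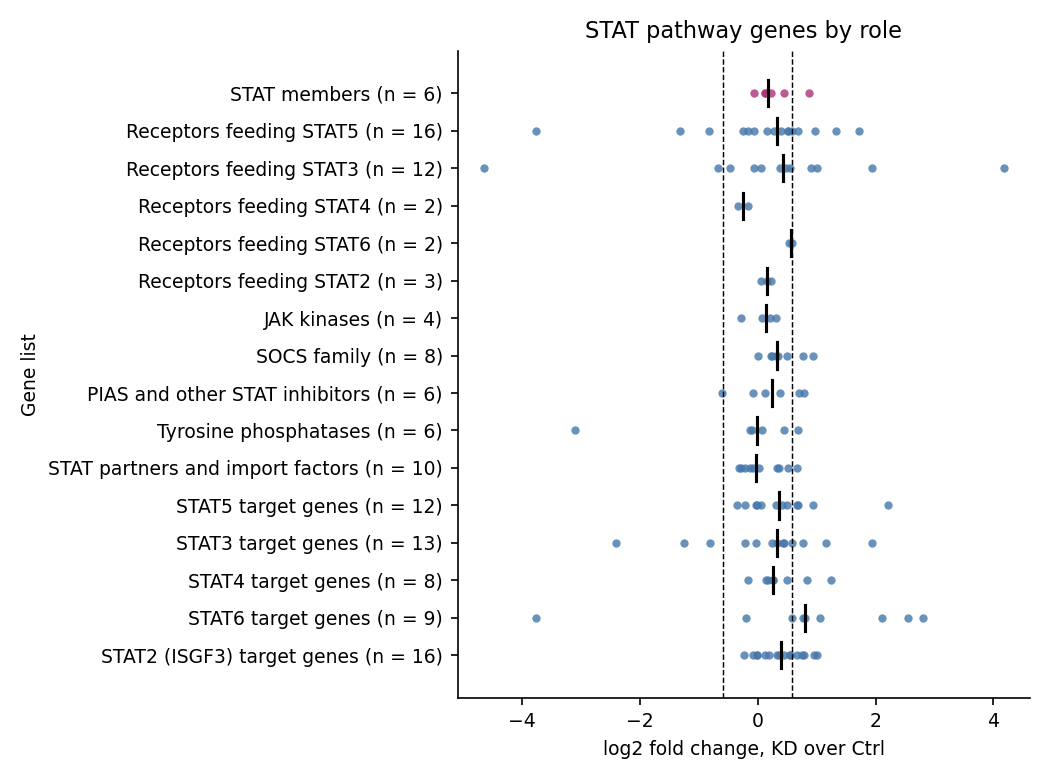
Log2 fold change of KD over Ctrl for the genes of each pathway list around the STAT family, 1 point per gene, a bar for the median of the list and dashed lines at 1.5-fold. The points of genes listed at 0 in 1 library are set by the added 1. The STAT6 targets have the highest median, 0.80, and the receptors of STAT4 the lowest, -0.25, which was 0.055 with the T cell core genes equal.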

How the data were processed

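Total RNA was extracted with TRIzol from splenic Treg cells, mRNA was selected with beads, and 1 library per group was sequenced on an Illumina instrument. The authors deposited 1 table per library with a scaled read signal for each gene. The labels name TopHat and mm10, while the submitters' processing notes list bcl2fastq 2.0, STAR, StringTie and DESeq2, so the aligner behind the values is uncertain. In both libraries 100% of the deposited signal values were whole multiples of the value of 1 read (tolerance 0.001 of a read), and reads were recovered by division. No total or unassigned rows were present, and 0 columns of other samples were used.

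Log2 fold changes were computed on the deposited signal with a pseudocount of 1, which understates the change of low genes, and genes were compared where the mean of both levels reached 1. Past threshold means at least 1.5-fold. By counting error alone a count of 0 allows up to 3 reads. More genes were listed at 0 in the KD library than that allows, as given below. PCR reads were not marked by molecular identifiers. The count test covered genes with at least 10 reads in all and used TMM library sizes from edgeR 4.0.16. The scalings compared were library totals, TMM, the median of ratios of DESeq2 1.42.0 and equal summed T cell core genes. Scripts ran in Python 3.11.15 and R 4.3.3. The binomial test and the counting intervals were run on simulated reads with counting error alone. That simulation held no spread between mice and no excess of zeros, so it checks the code and not the fit to these data. Gene positions, lengths and shared windows of 50 bases came from GENCODE vM21, in which 20516 of 20938 symbols were found, and promoters from RefSeq.

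The genes to be named were the 6 members, Mettl14 and Foxp3, and up to 2 neighbours on each side on the chromosome. To these came genes of each pathway list past 1.5-fold or with the highest levels, at most 6 a list. That rule was not kept in every list, and not every gene past 1.5-fold was named. Cish, Socs1, Isg15, Ifit2, Tbx21, Gata3, Il21r, Il27ra, Il13ra1, Irf9 and other genes outside that rule were named after their values were seen. The members and the lists were chosen with earlier results of these data known. Groups were taken from the labels.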

Additional observations from a re-analysis of the deposited data

How the results depend on the processing

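Of 81 values recomputed under an alternative, 64 stayed within their counting interval or within 1.5 times the count, 17 moved, and no value past 1.5-fold changed sign. Stat5a, which was not past it, went from -0.057 to 0.24 with the T cell core genes equal. With the T cell core genes equal the other log2 fold changes were 0.75 for Stat2, 1.18 for Stat3, 0.42 for Stat4, 0.43 for Stat5b and 0.52 for Stat6, 2 members were past 1.5-fold, and 4696 genes were higher in place of 2864. With library totals the values that moved were 0.79 for Stat3, 0.040 for Stat5b and 0.13 for Stat6. At a threshold of 2-fold, 0 members and 1722 genes were higher. A minimum mean level of 10 gave 2035 lower genes, and genes above 0 in both libraries gave 1904, in place of 4028. The count test called 1 member on counting error alone, and edgeR's exact test called 0 when a biological coefficient of variation of 0.2 was assumed and 0 with 0.4. No paired analysis was possible because there was 1 library per group, and for the same reason no replicate could be left out. Depth did not limit the members, each of which had 1488 reads or more. Of the 1224 genes with 10 to 19 reads in the Ctrl library, however, 610 were listed at 0 in the KD library. That is more zeros than counting error allows, and their source was not tested. Counting intervals and the count test thus do not hold for low genes, and values of low receptors and targets are coarse.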

Other observations

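The sequence GGACT, the core of the consensus at which N6-methyladenosine is written on RNA, was counted in the principal GENCODE transcript of each member. The mark itself was not measured in these libraries, and a match is a match of letters. Stat3 held it 1 time in 4516 bases, 0.221 per kilobase, which is percentile 9.39 among 16302 genes. Stat4 held it 6 times in 2982 bases, 2.01 per kilobase and percentile 88.5. The other members lay between these, Stat5a with 3 matches and 0.772 per kilobase, Stat6 with 4 and 1.06, Stat2 with 5 and 1.14 and Stat5b with 6 and 1.15, beside a median of 1.05 per kilobase over all genes. The member with the highest fold change thus had the lowest density of the 6 and the member with the highest density, Stat4, a log2 fold change of 0.12, which with 6 genes is a description.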
